A study of Mus musculus with 7 samples.

Results

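The 10 genes described here encode tau, related microtubule-associated proteins and the main tau kinases, and were followed in mouse hippocampus, a brain region needed for forming memories. They were chosen by symbol, as 10 of the 21965 genes of the deposited table: Mapt, Map2, Map1a, Map1b, Map4 and Map6 among the structural proteins, the kinases Gsk3a, Gsk3b and Cdk5, and the Cdk5 activator Cdk5r1. All 10 passed the filter on low counts, beside 14417 genes tested in all. Hippocampal polyadenylated RNA was sequenced in 7 libraries, 3 of a blank control group (Control) and 4 of a group with hidden hearing loss induced by noise (NIHHL), a condition in which noise harms hearing without a lasting threshold loss. NIHHL mice had been exposed to noise of 110 dB for 2 h, and tissue was taken 1 month after induction. The labels do not give strain, genotype, sex, age, litter or batch, or whether every library is a different animal, so the p-values describe only the spread between samples, which may be technical.

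Microtubule-associated proteins bind the microtubule lattice and set how stable and how closely spaced microtubules are in axons and dendrites. Tau, the product of Mapt, is enriched in axons, and its heavily phosphorylated form builds the neurofibrillary tangles of Alzheimer disease. Glycogen synthase kinase 3 and cyclin-dependent kinase 5 are the best known tau kinases, and the latter is active in neurons only when bound to a partner such as p35, which Cdk5r1 encodes. The series' design asks which genes tied to learning, memory and neurodegeneration differ after noise, and these genes belong to that question. Transcript counts carry no information on phosphorylation.

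Gsk3a and Gsk3b are paralogs, so their most similar coding segments are shown to let a reader see whether reads could be divided between them. Sequences are from GENCODE release M21 (GRCm38), 5′ to 3′. The 90 coding bases with the most matches are at chr7:25231660-25231841 (minus strand) and chr16:38187934-38191609 (plus strand), each across 2 exons, and capitals mark the 76 identical bases (84.4%).
Gsk3a: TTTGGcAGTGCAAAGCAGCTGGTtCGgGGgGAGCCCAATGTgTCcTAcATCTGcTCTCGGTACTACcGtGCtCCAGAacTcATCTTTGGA
Gsk3b: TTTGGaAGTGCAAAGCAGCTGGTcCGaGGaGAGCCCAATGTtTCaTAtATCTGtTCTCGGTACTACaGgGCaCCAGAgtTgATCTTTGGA
The longest run of identical coding bases between Gsk3a and Gsk3b was 17. Cut into all words of 31 bases, the annotated transcripts of the 10 genes shared 0 words with one another. Mapt, Cdk5 and Cdk5r1 shared 0 words with any other gene. Gsk3a shared 30.3% of its words and overlapped an antisense gene, not analysed here, by 820 exon bases. No source used here states whether counting used strand, and without strand the reads of the 2 genes cannot be told apart. Map1a shared 272 exon bases with Ppip5k1 on the opposite strand and was the one gene of the 10 whose deposited counts carried decimals. Counts are per gene, so transcript isoforms were not separated.

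Total counts per library ran from 14871376 to 24515146, and the 10 genes had between 923 and 29729 deposited counts each per library. There were 12 lists of cell type markers, chosen with earlier results of these data known. Levels are in CPM, counts scaled to the size of each library, here by the trimmed mean of M values. The pan-neuronal list had 0 of 8 genes with a higher mean in NIHHL. Its summed level was 4556 to 4995 CPM in NIHHL against 5103 to 5174 CPM in Control. The other neuronal lists had a higher mean in 1 of 4 (excitatory neurons), 2 of 5 (interneurons), 4 of 4 (dentate granule cells) and 1 of 5 (CA pyramidal cells) genes. Glial lists had 6 of 6 astrocyte, 6 of 7 oligodendrocyte, 3 of 3 oligodendrocyte precursor and 3 of 5 microglia genes higher, and endothelium had 1 of 4. Choroid plexus genes were higher in 7 of 7 cases, with sums from 202 to 7058 CPM in Control and from 657 to 8586 CPM in NIHHL, and ependymal genes in 5 of 5 (30.4 to 44.4 against 51.7 to 67.7 CPM). Of 6 CA pyramidal markers listed, 5 were among the genes tested. No tested marker was at 0 in a library and 0 tested markers were called by edgeR, the test used below. DESeq2, an alternative test, called the ependymal marker Dnah6. In bulk tissue, fewer cells of a type and less RNA per cell cannot be told apart.

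Group means of the 10 genes lay close together, and the libraries of the groups overlapped for each of them. The differences between group means ran from -0.13 for Cdk5 to 0.076 for Map4 on the log2 scale, with 4 genes higher and 6 lower in NIHHL (49.9% of all genes tested were higher and 50.1% lower). Their median was -0.015, beside -0.00045 over all genes tested. By edgeR's quasi-likelihood test with Benjamini-Hochberg adjustment over all genes, 0 of the 10 were called at an adjusted p under 0.05 (adjusted p between 0.996 and 1.00), where 0% of all genes were called. At an unadjusted p under 0.05 there were 0 of 10, beside 3.63% of all genes, and in 0 of 10 did the groups fail to overlap, beside 5.20% of all genes. Over all genes edgeR called 0, with 523 at an unadjusted p under 0.05, limma-voom called 0 (534) and DESeq2 called 4 (447), none of them among the 10. The 95% intervals of the 10 fold changes lay between -0.37 and 0.26 on the log2 scale, so that no interval reached below a 0.776-fold or above a 1.20-fold level in NIHHL.

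**Figure D1:**
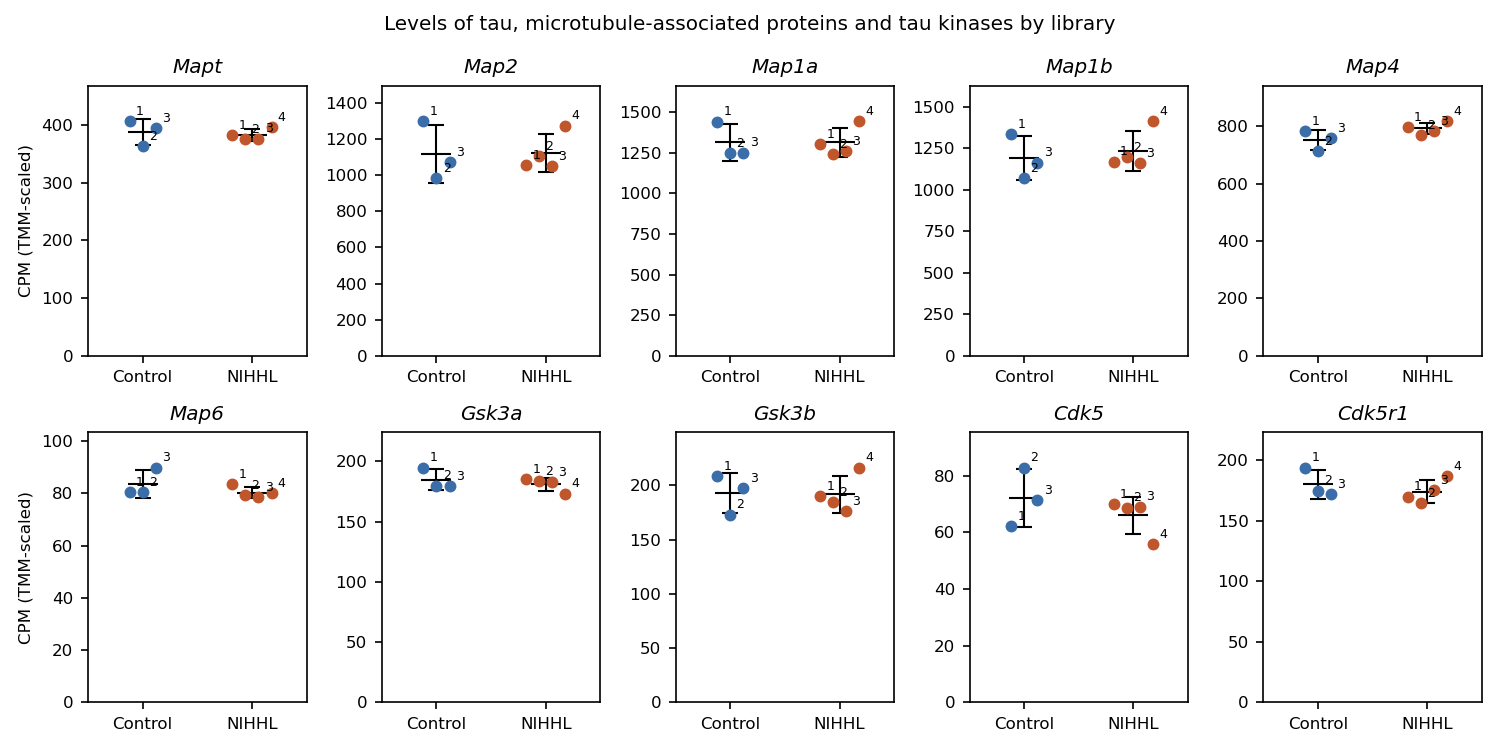
CPM of each gene (vertical axis, from 0) in the 3 Control (blue) and 4 NIHHL (orange) libraries, numbered by replicate, with the group mean and SD in black. In all 10 panels the points of the groups overlap, and NIHHL replicate 4 is the highest NIHHL library for Mapt, Map2, Map1a, Map1b, Map4, Gsk3b and Cdk5r1, the lowest for Cdk5 and Gsk3a, and in between for Map6.

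Tau itself varied little. Mapt (ENSMUSG00000018411, chr11:104231390-104332090, plus strand) stood at 406, 363 and 395 CPM in Control (replicates 1 to 3, the order kept below) and at 382, 375, 376 and 396 CPM in NIHHL (replicates 1 to 4). All 4 NIHHL libraries lay inside the Control range. The means were 388 ± 22.5 CPM in Control (SD, n = 3) and 382 ± 9.90 in NIHHL (SD, n = 4). The log2 fold change was -0.021 (SE 0.063, 95% interval -0.16 to 0.12; edgeR adjusted p = 0.996), and the two-sided exact permutation test gave p = 0.743, where the smallest p that 3 against 4 libraries allow is 0.0286. Without Control replicate 1 the log2 fold change was 0.013.

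Map2, the counterpart of tau in dendrites and cell bodies, had more spread. Control libraries had 1298, 985 and 1069.6 CPM of Map2 (ENSMUSG00000015222, chr1:66175273-66442583, plus strand), and NIHHL libraries had 1057, 1104, 1049.8 and 1273 CPM. Control replicate 1 and NIHHL replicate 4 were well above the other 5 libraries, and Control replicate 2 was the lowest. The means were 1117 ± 162 CPM in Control and 1121 ± 104 in NIHHL, a log2 fold change of 0.0047 (SE 0.10, edgeR adjusted p = 1.00). The sign turned without Control replicate 2 (-0.076), Control replicate 3 (-0.026) or NIHHL replicate 4 (-0.061).

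Map1a and Map1b encode large filamentous proteins that are each cut into a heavy and a light chain. Map1b is abundant in growing neurites and Map1a in mature neurons. Map1a (ENSMUSG00000027254, chr2:121289600-121310832, plus strand) was at 1442, 1247 and 1249.8 CPM in Control and at 1304, 1243, 1262 and 1444 CPM in NIHHL, with a log2 fold change of 0.00032 (SE 0.079, 95% interval -0.17 to 0.17). Map1b (ENSMUSG00000052727, chr13:99421446-99516540, minus strand) was at 1336, 1073 and 1165 CPM in Control and at 1169, 1197, 1162 and 1413.5 CPM in NIHHL, with a log2 fold change of 0.053 (SE 0.094, 95% interval -0.15 to 0.26). In both genes Control replicate 1 and NIHHL replicate 4 were again the 2 highest libraries, and the remaining libraries of the groups lay among each other. The sign of Map1a turned when Control replicate 2 (-0.032), Control replicate 3 (-0.034) or NIHHL replicate 4 (-0.047) was left out. That of Map1b turned when Control replicate 2 (-0.014) or NIHHL replicate 4 (-0.017) was left out.

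Map4, a widely expressed member of the tau family that is also found in glia and other non-neuronal cells, had the smallest exact permutation p of the 10 (p = 0.114). Map4 (ENSMUSG00000032479, chr9:109931460-110083955, plus strand) was at 782, 714 and 757 CPM in Control and at 797, 769.6, 784 and 817 CPM in NIHHL. The NIHHL libraries with replicate numbers 1, 3 and 4 lay above every Control library, and replicate 2 lay between the Control values. The means were 751 ± 34.4 and 792 ± 20.3 CPM, with a log2 fold change of 0.076 (SE 0.061, 95% interval -0.059 to 0.21; edgeR adjusted p = 0.996). It was 0.044 when Control replicate 2 was left out and 0.11 when Control replicate 1 was.

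Map6, also called STOP, protects microtubules from cold-induced disassembly. Map6 (ENSMUSG00000055407, chr7:99267447-99337137, plus strand) was at 80.4, 80.5 and 89.8 CPM in Control and at 83.4, 79.3, 78.4 and 80.0 CPM in NIHHL. Control replicate 3 was the highest library and the other 6 lay between 78.4 and 83.4 CPM. Its log2 fold change was -0.058 (SE 0.067, 95% interval -0.21 to 0.090), and it was -0.0032 when Control replicate 3 was left out.

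Both isoforms of glycogen synthase kinase 3, which phosphorylates tau and beta-catenin and is inhibited by AKT, were at similar CPM. Gsk3a (ENSMUSG00000057177, chr7:25228258-25237851, minus strand) was at 195, 179.9 and 179.7 CPM in Control and at 185, 183, 183 and 173 CPM in NIHHL (log2 fold change -0.028, SE 0.063). Gsk3b (ENSMUSG00000022812, chr16:38089001-38246084, plus strand) was at 209, 173 and 197 CPM in Control and at 189.9, 185, 176 and 216 CPM in NIHHL (log2 fold change -0.0082, SE 0.088). For Gsk3a, NIHHL replicate 4 was the lowest library of all 7, and for Gsk3b it was the highest.

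Cdk5 encodes the catalytic subunit of the other kinase and had the widest interval of the 10. Cdk5 (ENSMUSG00000028969, chr5:24418241-24423530, minus strand) was at 62.2, 82.8 and 71.3 CPM in Control and at 70.0, 68.7, 69.1 and 56.0 CPM in NIHHL. The 3 NIHHL libraries other than replicate 4 lay between 68.7 and 70.0 CPM, inside the Control range, and NIHHL replicate 4 was below all other libraries. The means were 72.1 ± 10.3 and 66.0 ± 6.68 CPM, with a log2 fold change of -0.13 (SE 0.11, 95% interval -0.37 to 0.11; exact permutation p = 0.400). The value was -0.015 without Control replicate 2 and -0.22 without Control replicate 1.

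The product of Cdk5r1, p35, activates Cdk5 and is cut by calpain into the longer-lived p25. Cdk5r1 (ENSMUSG00000048895, chr11:80477023-80481184, plus strand) was at 194, 175 and 172 CPM in Control and at 169.7, 165, 175 and 187 CPM in NIHHL. Its log2 fold change was -0.049 (SE 0.071, 95% interval -0.21 to 0.11). The 3 kinases and the activator thus all had a lower mean in NIHHL, where 50.1% of all genes tested did. The pan-neuronal markers had a lower mean in 8 of 8 cases. Genes of the other neuronal lists were higher in 1 of 4 (excitatory neurons), 2 of 5 (interneurons), 4 of 4 (dentate granule cells) and 1 of 5 (CA pyramidal cells) cases. The part of neuronal content in the values of the kinases and the activator was not tested. Without Control replicate 1 the signs of Gsk3a (0.0104), Gsk3b (0.050) and Cdk5r1 (0.0060) turned, and that of Gsk3b also turned without Control replicate 3 (0.0085), NIHHL replicate 2 (0.011) or NIHHL replicate 3 (0.030).

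**Figure D2:**
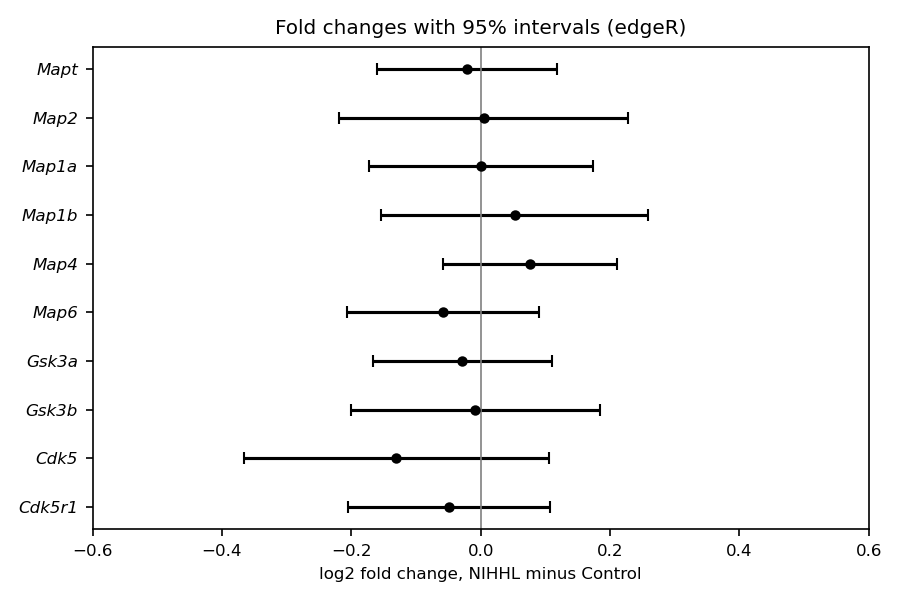
Log2 fold change, NIHHL minus Control, of each gene (points) with its 95% interval (bars) from edgeR. Every interval includes 0, and Cdk5 has the widest, from -0.37 to 0.11.

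The order of the genes was set by their levels per length of exon, since long transcripts give more counts. Levels are means over the 7 libraries of CPM per kilobase of annotated exon, with the SD over libraries. Map1a was highest at 108 ± 7.46, followed by Map1b at 76.8 ± 7.38, Map2 at 68.1 ± 7.24 and Gsk3a at 63.0 ± 2.26. Map4 (51.1 ± 2.17) and Mapt (51.1 ± 2.00) came next, then Cdk5r1 (42.4 ± 2.43), Cdk5 (31.6 ± 3.82), Gsk3b (19.6 ± 1.64) and Map6 (8.92 ± 0.426). The ranges of the libraries overlapped for the neighbours Map1b and Map2, Map2 and Gsk3a, and Map4 and Mapt. Map4 was above Mapt in 4 of 7 libraries and Map2 above Gsk3a in 6 of 7, and the other neighbours kept their order in all 7. Among 14391 genes with a length, Map1a ranked 320 and Mapt 775, and Map6 ranked 4767.

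The order depended on which length was used. Exon blocks of all annotated transcripts together gave Map2 16449 bases, while its longest annotated coding transcript had 6258. Per kilobase of the longest coding transcript, Map2 came first (179), then Map4 (127), Map1a (111), Map1b (103), Gsk3a (80.8) and Mapt (73.3), with Cdk5r1 (42.4), Cdk5 (33.3), Gsk3b (23.2) and Map6 (16.6) at the low end as before. Under either length, Gsk3a was above Gsk3b although their CPM were close, because the annotated exons of Gsk3b are longer (9831 against 2900 bases).

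**Figure D3:**
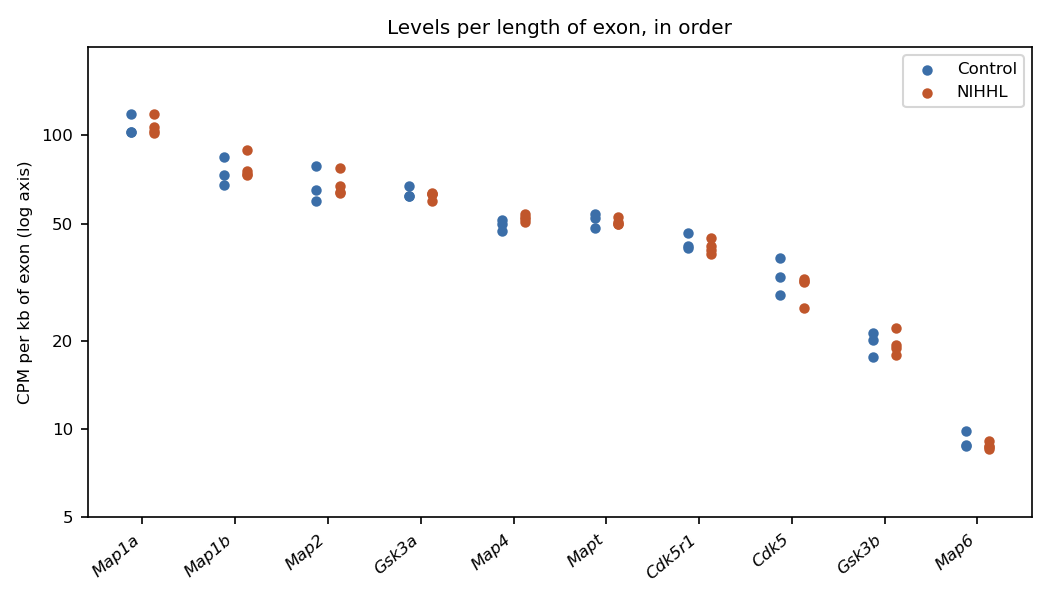
CPM per kilobase of annotated exon (log axis) in each Control (blue) and NIHHL (orange) library, genes in order of their mean. The ranges of the groups overlap for every gene, and the levels fall from 108 for Map1a to 8.92 for Map6.

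The spread within groups was alike in several genes. For Map2, Map1a, Map1b, Gsk3b, Mapt and Cdk5r1, with 16449, 12166, 15846, 9831, 7531 and 4162 exon bases, Control replicate 1 and NIHHL replicate 4 were the 2 highest libraries. For Map2, Map1b, Gsk3b, Mapt and Map4 Control replicate 2 was the lowest. Cdk5, with 2168 exon bases the shortest of the 10, had the opposite order, with Control replicate 2 the highest and NIHHL replicate 4 and Control replicate 1 the 2 lowest. The other genes did not follow length in this way: Map4, with 15143 bases, had Control replicate 1 in the middle of the 7 libraries, Gsk3a, with 2900 bases, had it as the highest, and Map6, with 9152 bases, had Control replicate 3 as the highest. Over 8382 genes with a mean log2 CPM above 4, a gene's deviation from its mean had a Spearman correlation with exon length of 0.45 in Control replicate 1, -0.58 in Control replicate 2 and 0.52 in NIHHL replicate 4, and between -0.33 and 0.10 in the other 4. These are correlations across genes, which are not independent replicates.

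When a smooth trend with length was taken off each library, the SD over the 7 libraries became smaller in 7 of the 10 genes. On the log2 scale it went from 0.15 to 0.067 for Map2, from 0.14 to 0.050 for Map1b, from 0.12 to 0.067 for Gsk3b, from 0.17 to 0.091 for Cdk5, from 0.097 to 0.056 for Map1a and from 0.056 to 0.033 for Mapt. Map4 went from 0.062 to 0.059, while Map6 (0.067 to 0.088), Gsk3a (0.051 to 0.076) and Cdk5r1 (0.081 to 0.087) became more variable. The median over the same 8382 genes went from 0.11 to 0.099, and the median ratio of the SD after to the SD before was 0.94. The trend was fitted to these same libraries, so some fall in SD is built in. With these length offsets in the edgeR fit, 0 of the 10 were called. The log2 fold changes were -0.036 (SE 0.050) for Mapt, -0.026 (SE 0.062) for Map2 and -0.029 (SE 0.060) for Map1a. They were 0.020 (SE 0.058) for Map1b, 0.044 (SE 0.057) for Map4 and -0.081 (SE 0.066) for Map6. Among the kinases they were -0.0026 (SE 0.064) for Gsk3a, -0.032 (SE 0.060) for Gsk3b and -0.079 (SE 0.068) for Cdk5. Cdk5r1 was at -0.040 (SE 0.067). What the length trend itself comes from was not tested.

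**Figure D4:**
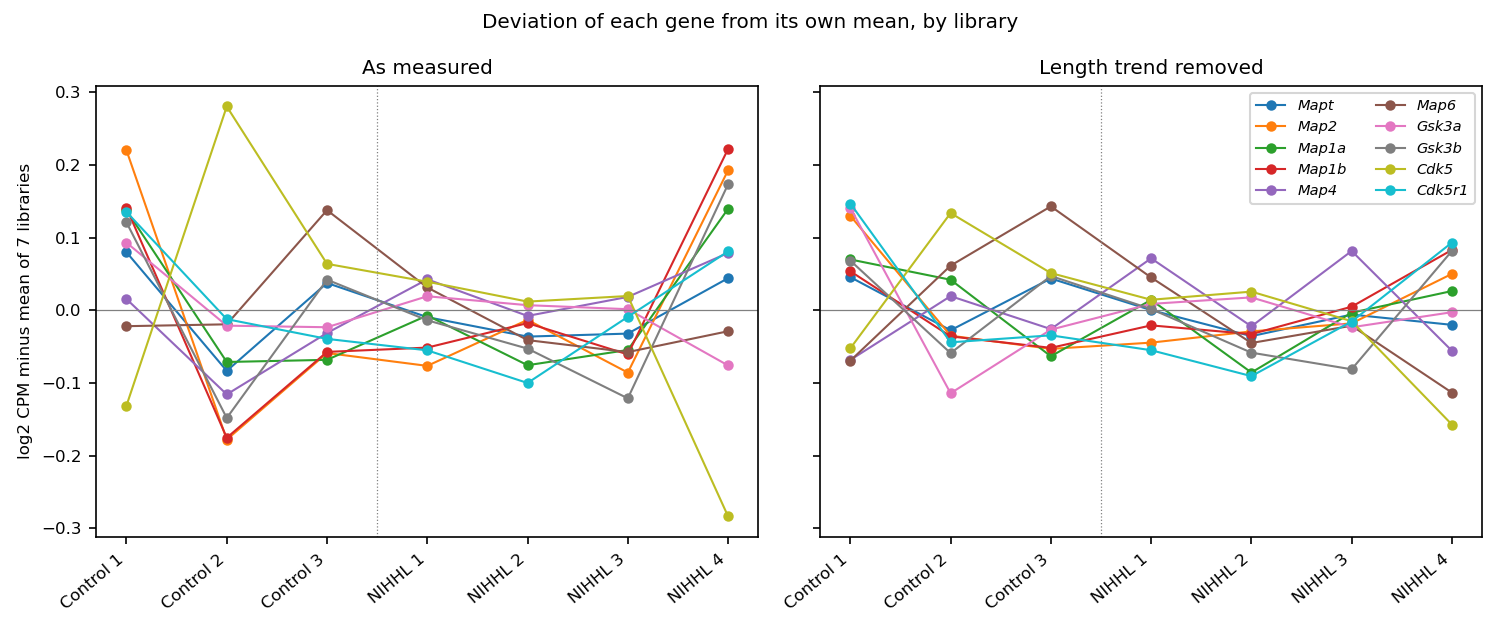
Log2 CPM of each gene minus its mean over the 7 libraries, by library, as measured (left) and after the trend with exon length was removed (right); the dotted line separates Control from NIHHL. On the left Cdk5 runs opposite to Map2, Map1b and Gsk3b in Control replicates 1 and 2 and NIHHL replicate 4, and on the right the spread of these 4 genes is smaller.

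Ratios within a library do not depend on library scaling, and 4 pairs were compared by the exact two-sided permutation test. The log2 ratio of Map1b to Map1a, which falls as neurons mature, was -0.11, -0.22 and -0.10 in Control and -0.16, -0.055, -0.12 and -0.030 in NIHHL. The groups overlapped, and the difference of 0.053 had an exact permutation p = 0.343. The log2 ratio of the dendritic Map2 to the axonal Mapt was 1.67, 1.44 and 1.44 in Control and 1.47, 1.56, 1.48 and 1.68 in NIHHL, also overlapping, a difference of 0.030 (exact permutation p = 0.686).

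The log2 ratio of Gsk3a to Gsk3b was -0.098, 0.057 and -0.14 in Control and -0.038, -0.011, 0.052 and -0.32 in NIHHL, a difference of -0.020 (exact permutation p = 0.886). The log2 ratio of the activator Cdk5r1 to its kinase Cdk5 was 1.64, 1.08 and 1.27 in Control and 1.28, 1.26, 1.34 and 1.73 in NIHHL, a difference of 0.076 (exact permutation p = 0.714). In both pairs the groups overlapped and NIHHL replicate 4 was at one end of all 7 libraries. After Benjamini-Hochberg adjustment over the 4 pairs, each p was 0.886. The signs of 3 of these differences depended on single libraries: without NIHHL replicate 4 they were -0.016 for Map2 to Mapt, 0.061 for Gsk3a to Gsk3b and -0.035 for Cdk5r1 to Cdk5, and without Control replicate 2 they were -0.0092, 0.038 and -0.049. Without Control replicate 3 the difference for Map2 to Mapt was -0.0101. Without Control replicate 1 the differences were 0.11 for Map2 to Mapt and 0.23 for Cdk5r1 to Cdk5.

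**Figure D5:**
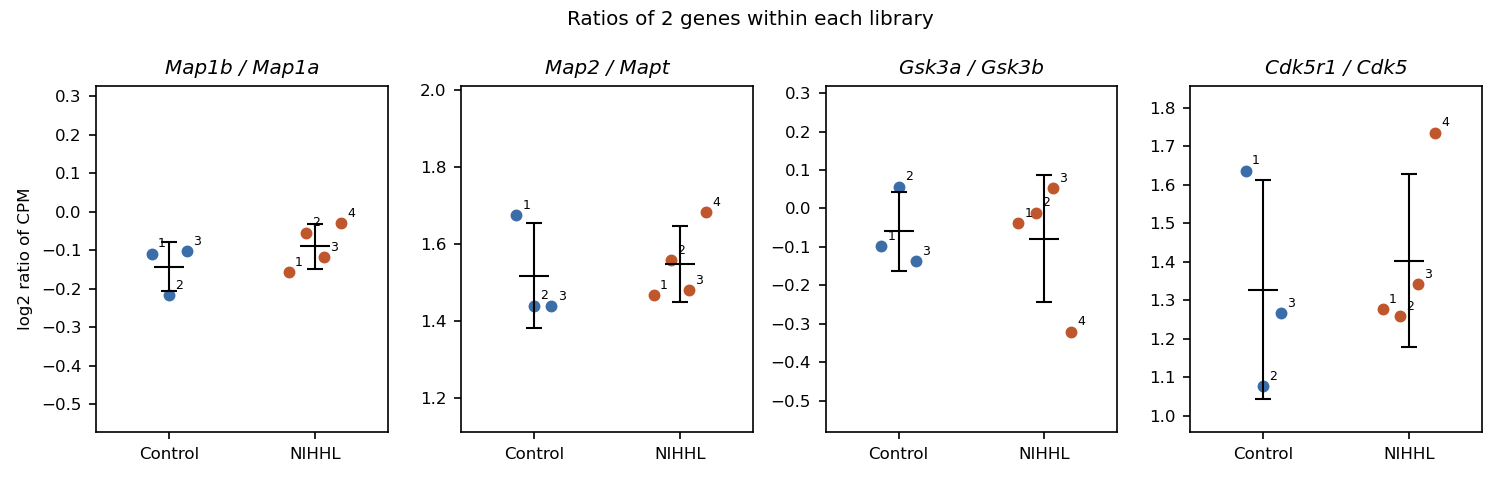
Log2 ratio of the CPM of 2 genes within each library (points, numbered by replicate), with group mean and SD; all 4 panels span the same height on the log2 scale. The groups overlap in every panel, and NIHHL replicate 4 is the lowest library for Gsk3a to Gsk3b (-0.32) and the highest for Cdk5r1 to Cdk5 (1.73), the latter close to Control replicate 1 (1.64).

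The genes around tau and its kinases were read from 8 lists of 118 different genes, all of which were tested, and 0 were called. At an unadjusted p under 0.05 there were 4, beside 3.63% of all genes, and 5 had groups that did not overlap, beside 5.20%. Of the 118, 41 had a higher and 77 a lower mean in NIHHL, where 50.1% of all genes tested were lower, and their log2 fold changes had a median of -0.031. The pan-neuronal markers were lower in 8 of 8 cases with a median of -0.13. The medians of the other neuronal lists were -0.097 (excitatory neurons), -0.0039 (interneurons), 0.19 (dentate granule cells) and -0.084 (CA pyramidal cells). The part of neuronal content in the counts of the 118 genes was not tested. Some genes stand in 2 lists or also among the neuronal markers, such as Stmn2.

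Among 10 other structural and doublecortin-family proteins, 7 were higher and 3 lower (median 0.016). Their smallest p values belonged to Map6d1, a relative of Map6 (log2 fold change 0.10, SE 0.074), and Map7d1 (-0.059, SE 0.059). Of 22 genes listed as other tau kinases 5 were higher and 17 lower (median -0.035). That list includes Cdk5r2, which encodes a Cdk5 activator and not a kinase. It was led by the stress kinases Mapk8, or JNK1 (-0.16, SE 0.071), and Mapk10, or JNK3 (-0.10, SE 0.062). Mapk8 averaged 84.2 ± 4.79 CPM in NIHHL against 93.9 ± 4.90 in Control. Of 18 genes of tau phosphatases and their regulators 1 was higher and 17 lower (median -0.047). Anp32a, an inhibitor of the tau phosphatase PP2A, was at 154, 153 and 153 CPM in Control and at 143, 142, 141 and 136 CPM in NIHHL (log2 fold change -0.13, SE 0.058, edgeR adjusted p = 0.996), so that its groups did not overlap. Ppp2r2b, a regulatory subunit of PP2A, had a log2 fold change of -0.10 (SE 0.060), also without overlap.

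Of 14 tubulins, the building blocks of microtubules, 5 were higher and 9 lower (median -0.055). Tuba8 averaged 8.13 ± 1.62 CPM over Control and 6.24 ± 0.892 CPM over NIHHL libraries (log2 fold change -0.38, SE 0.17), and Tuba4a averaged 422 ± 14.5 and 388 ± 5.93 CPM (-0.12, SE 0.058), with no overlap for Tuba4a. Tubulin genes are similar in sequence, so their reads can be divided among them. Of 17 plus-end, stathmin and severing genes 7 were higher and 10 lower (median -0.041). Stmn2, a stathmin of growing axons that is also a pan-neuronal marker, was at 294, 358 and 325 CPM in Control and at 281, 283, 283 and 273 CPM in NIHHL, without overlap (log2 fold change -0.22, SE 0.072). Fign, a severing enzyme, averaged 1.10 ± 0.427 CPM over Control and 1.79 ± 0.375 CPM over NIHHL libraries (0.71, SE 0.33). Its level was low in every library (0.629 to 2.24 CPM). The groups overlapped, with 1.46 CPM in Control replicate 3 and 1.38 CPM in NIHHL replicate 1.

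Of 11 tubulin-modifying enzymes 3 were higher and 8 lower (median -0.042). The smallest p values there belonged to the deacetylase Sirt2, which is abundant in oligodendrocytes (0.16, SE 0.092), and to Agbl4, which trims glutamates from tubulin (-0.19, SE 0.15). The oligodendrocyte markers summed to 6719.9 to 8457 CPM in Control and 7689 to 9165 CPM in NIHHL, and their part in the value of Sirt2 was not tested. Of 14 genes upstream of or bound to GSK3, 8 were higher and 6 lower (median 0.018), led by the GSK3-binding proteins Frat1 (0.19, SE 0.14) and Frat2 (-0.17, SE 0.13), the latter without overlap. Of 13 Cdk5 partner and calpain genes 5 were higher and 8 lower (median -0.044), led by Cdk5rap2 (0.24, SE 0.13) and the calpain Capn1 (-0.13, SE 0.089). All values in these lists are log2 fold changes unless given in CPM, and each of the 16 named genes had an adjusted p of 0.996 by edgeR.

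Finally, genes were ranked by their distance from Mapt over the 7 libraries, as the root mean square difference between log2 CPM values after each gene's mean was taken off. Mapt itself varied by 0.052 on this measure, which is also the distance of a gene with no variation at all, so the measure reflects how much a gene varied as well as the shape of its pattern. The 5 nearest of 8381 other genes with a mean log2 CPM above 4 were Slc12a5, a neuronal chloride transporter (0.018), Ppp2r2a, a PP2A subunit (0.018), C2cd5 (0.020), Rnf130 (0.020) and Rab14 (0.020). Of the other 9 genes described here, Map4 (0.050) was the one below 0.052. Cdk5r1 (0.056), Map1a (0.061), Gsk3a (0.061), Gsk3b (0.066), Map6 (0.068), Map1b (0.089), Map2 (0.098) and Cdk5 (0.20) were above it, and their order is not an order of likeness in shape.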

How the data were processed

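The values deposited by the authors are expected counts, listed by Ensembl identifier and symbol; 90.7% of its values were whole numbers, and they were not scaled to library size. Per the submitters' processing notes, Bowtie2 2.2.8, HISAT2, StringTie 1.3.1 and DESeq2 were used, with no role stated; counting step, strand setting, build and annotation: not given in the sources used here. Expected counts were rounded to whole numbers, filtered with filterByExpr (minimum count 10) to 14417 of 21965 genes, and scaled by TMM. Rows without a symbol (90) were kept under their identifiers. NIHHL (n = 4) was compared with Control (n = 3) by edgeR 4.0.16's quasi-likelihood test (R 4.3.3, robust, group only), with Benjamini-Hochberg adjustment over all genes and calls under 0.05; SE is the log2 fold change over the square root of F. Log2 CPM carried a prior count of 2, and single values had an exact permutation test over all 35 arrangements. Total counts were 14871376 to 24515146. Replicate libraries differed by more than sampling noise (lowest chi-square per degree of freedom 7.68). Exon lengths, known for 21806 genes, came from GENCODE M21. Length offsets were natural splines with 3 interior knots. Alternatives used DESeq2 1.42.0, limma 3.58.1 and other settings. Named genes were the 10 members, the 2 with the smallest p per list, and the 5 nearest to Mapt. The scripts were tested on simulated data. Members and lists were chosen with earlier results of these data known.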

Additional observations from a re-analysis of the deposited data

Results flagged for a closer look

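Within the 4 NIHHL libraries, replicate 4 stood apart for Map1b and for Cdk5. Its Map1b level was 1413.5 CPM where the other 3 were 1162 to 1197, and the gap to the nearest library was 0.86 of the whole range of the group. Its Cdk5 level was 56.0 CPM where the other 3 were 68.7 to 70.0, a gap of 0.906 of the range. Both exceed the critical value for 4 samples at the 95% level. The next largest gaps, 0.825 for the ratio of Cdk5r1 to Cdk5 and 0.808 for Gsk3a, fell just short of it. Replicate 4 was the farthest library there too, and in most of the values examined. Of 14 such values examined, 2 stood out, where chance gives about 1 in 20 for a single value. The 14 values share the same 4 libraries, and the ratios among them reuse the same genes. They are not independent, so 2 of 14 cannot be set against 1 in 20. NIHHL replicate 4 had a Spearman correlation of 0.52 between deviation and exon length.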

How the results depend on the processing

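None of the 10 genes was called by any of 16 alternatives, and the lowest unadjusted p among them was 0.0474, for Gsk3b (log2 fold change -0.14, adjusted p = 0.689 by edgeR) with Control replicate 2 and NIHHL replicate 4 left out together, a setting chosen after seeing the data. Over all genes, 0 were called except 4 by DESeq2's Wald test and 1 with those 2 libraries left out. Signs held in 16 of 16 alternatives for Map4 (0.029 to 0.11) and Map6 (-0.085 to -0.0032, the latter without Control replicate 3), and changed at least once for the other 8. With the length offsets the values were -0.026 for Map2, -0.029 for Map1a and 0.033 for the ratio of Gsk3a to Gsk3b. Map1a was -0.000215 without the low-count filter and -0.000453 by DESeq2. With the 2 libraries left out together they were -0.14 for Map2, -0.081 for Map1a, -0.085 for Map1b and 0.054 for Cdk5, and the ratios were -0.0046 (Map1b to Map1a), -0.054 (Map2 to Mapt), 0.12 (Gsk3a to Gsk3b) and -0.16 (Cdk5r1 to Cdk5). The cause was not tested.

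Same-numbered libraries did not deviate together (r = -0.52, -0.33 and -0.037 for numbers 1 to 3, and Control replicate 1 was nearest NIHHL replicate 4), so the numbers were not taken as pairs. With the replicate number as a block, NIHHL replicate 4 had no Control partner and took no part in the group difference. In that fit 0 genes were called, and Map2 was -0.053, Map1a -0.045 and Map1b -0.013. For the ratios, the block was the mean difference between same-numbered libraries 1 to 3. The ratios were -0.016 (Map2 to Mapt), 0.061 (Gsk3a to Gsk3b) and -0.035 (Cdk5r1 to Cdk5). These repeat the values without NIHHL replicate 4 and are not a separate check. With the block and length offsets Map2 was -0.045, Map1a -0.041, Map1b -0.0049 and Gsk3a 0.0012. Leaving out 1 library at a time gave -0.064 to 0.013 for Mapt, -0.076 to 0.13 for Map2, -0.047 to 0.072 for Map1a, -0.017 to 0.14 for Map1b, 0.044 to 0.11 for Map4, -0.085 to -0.0032 for Map6, -0.049 to 0.0104 for Gsk3a, -0.078 to 0.050 for Gsk3b, -0.22 to -0.015 for Cdk5 and -0.083 to 0.0060 for Cdk5r1. The ratios ran from 0.015 to 0.075 (Map1b to Map1a), -0.016 to 0.11 (Map2 to Mapt), -0.064 to 0.061 (Gsk3a to Gsk3b) and -0.049 to 0.23 (Cdk5r1 to Cdk5). Each gene had at least 923 counts in each library, and the part of counting in its spread was not tested.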
